A study of Homo sapiens with 6 samples.

Results

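The 32 genes described here encode enzymes of cholesterol synthesis, the proteins that control the SREBP transcription factors, 3 proteins that carry sterols and 4 fatty acid synthesis enzymes that SREBPs also control. They were taken by name from a table of 58735 genes, with no threshold on any measured value. They are not the whole pathway. All 32 passed the filter on low counts, which 16591 genes passed. The data are RNA-seq read counts from RPE-1 cells, an established human retinal pigment epithelial line. This derivative makes GFP-labelled CETN2, a centriole protein, and holds a doxycycline-inducible PLK4 gene driven through rtTA. In 3 libraries, written here as siSON, the cells had received an siRNA targeting SON, which encodes a splicing cofactor of nuclear speckles. The other 3, siControl, are from cells given a scramble siRNA. PLK4 was induced with 1 µg/mL doxycycline in all 6 libraries, so each comparison is between cells that carry the same transgenes and the same induction. Neither the number of clones behind the line nor whether the replicates were separate cultures is stated, so the p-values measure the spread between these libraries, which may be technical.

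Cholesterol is built from acetyl-CoA through mevalonate, isoprenoid diphosphates, squalene and lanosterol. The supply is set by feedback. When sterol in the endoplasmic reticulum is low, SCAP carries SREBP precursors to the Golgi, where the proteases encoded by MBTPS1 and MBTPS2 cut them, and the released part enters the nucleus and switches on synthesis and uptake genes. When sterol is plentiful, INSIG proteins hold SCAP and the precursor in the endoplasmic reticulum. SREBF1 encodes the SREBP-1 proteins, best known for fatty acid genes, and SREBF2 encodes SREBP-2, best known for sterol genes. INSIG1 is itself an SREBP target.

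The libraries held 54572365 to 69764836 counts each, and the 32 genes together took 0.257% to 0.302% of the counts in siControl and 0.217% to 0.249% in siSON. Levels are given in CPM, a gene's counts relative to the library's total after TMM scaling between libraries. The shares just given are from before this scaling. Its factors were 1.061 to 1.0797 in siControl and 0.92562 to 0.94464 in siSON, so scaling lowers siControl values and raises siSON values. Differences are log2 fold changes (log2 change), siSON over siControl, from edgeR's quasi-likelihood test with Benjamini-Hochberg adjusted p-values over all genes tested, and a gene was called changed when its adjusted p was under 0.05. SON itself had 295.3, 312.7 and 283.9 CPM in siControl and 67.96, 69.96 and 64.998 CPM in siSON, 22.8% of the control mean (log2 change -2.14, SE 0.06, adjusted p 6.78e-10). CETN2 rose by 0.38 and PLK4 fell by 0.36 on the log2 scale (adjusted p 5.89e-05 and 0.0143). The counts do not separate RNA of the introduced PLK4, or of any introduced CETN2, from that of the cell's own genes. Of 14 retinal pigment epithelium markers, 9 stayed under 1 CPM in every library, among them RPE65, and TYR, DCT and TTR had no count; of the 7 tested, 3 rose and 4 fell, and the list summed to 55.8 to 58.7 CPM in siControl and 74.9 to 84.0 CPM in siSON. Of 4 epithelial markers, the keratins KRT8 and KRT18 rose, and KRT19 and EPCAM stayed under 1 CPM in every library. The 4 summed to 764 to 864 CPM in siControl and 1331 to 1392 CPM in siSON. The summed level of 7 mesenchymal markers was 16530 to 19210 CPM and 16260 to 17550 CPM, with 1 higher and 4 lower. Markers of blood, endothelial cells, hepatocytes and adipocytes summed to at most 2.02 CPM per list in any library, and CD3E, HBB and APOB had no count. The part of these marker changes in the results below was not tested, and in bulk RNA fewer cells of a type and less RNA per cell cannot be told apart.

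Replicate 1 of both groups stood apart for these genes. It held the highest of the 3 values in both groups for 23 of the 32 genes (71.9%), compared with 3324 of all 16591 genes tested. Replicates 2 and 3 were highest in both groups for 1 and 2 of the 32. The result of the comparison is therefore also given below without both of these libraries.

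Of the 32 genes, 26 were called changed (81.2%), beside 71.7% of all genes tested. The 26 were made up of 11 that rose and 15 that fell, beside 35.2% and 36.5% of all genes. The groups did not overlap for 23 of the 32, beside 75.1% of all genes. At least a 2-fold change was called for 7 genes (29.3% of all genes were), with NPC1 higher (8.72% of all genes) and TM7SF2, SREBF1, LSS, INSIG1, FASN and MVD lower (20.5% of all genes). The median log2 fold change was -0.076, and -0.027 over all genes tested. The balance between directions depended on the scaling: with library size alone, which moved the median of all genes by about 0.20 downward to -0.22, 7 genes rose and 17 fell, and under cyclic loess normalization 6 rose and 17 fell. Without replicate 1 of both groups the numbers were 10 higher and 16 lower, and 25 of these 26 were among the 26 above.

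**Figure D1:**
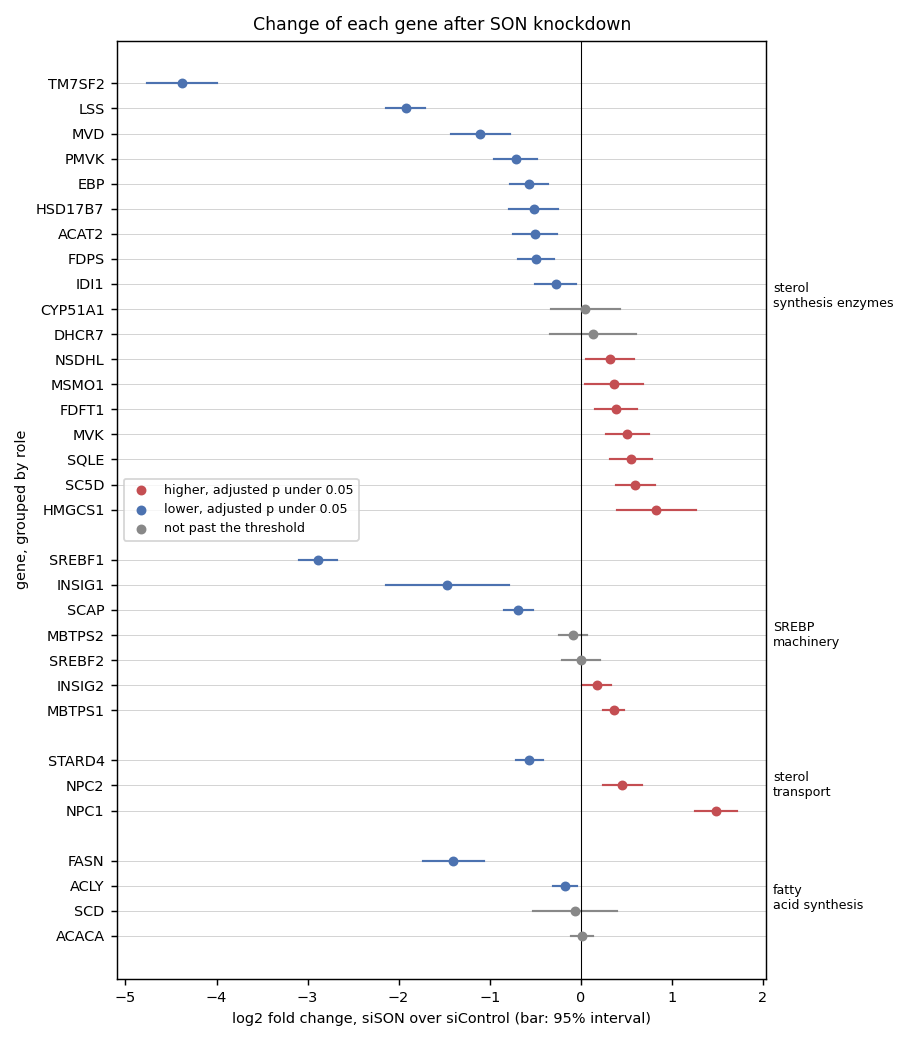
Log2 fold change (x axis, siSON over siControl) of each of the 32 genes (y axis, grouped by role) from the edgeR fit, with bars for the 95% interval. Red marks the 11 genes that rose, blue the 15 that fell and grey the 6 not past an adjusted p of 0.05; TM7SF2 lies farthest to the left at -4.38 and NPC1 farthest to the right at 1.48.

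The start-site sequences of 4 of the genes are shown because these genes differed in their response: SREBF2 did not pass the test, HMGCS1 rose, and LSS and INSIG1 fell. They are RefSeq windows of GRCh38.p14 from 250 bases before to 50 bases after an annotated start, read 5′ to 3′ on the gene's strand. SREBF2 lies at chr22:41832855-41833154 (plus strand), HMGCS1 at chr5:43313363-43313662 (minus strand), LSS at chr21:46228725-46229024 (minus strand) and INSIG1 at chr7:155297628-155297927 (plus strand). Capitals mark matches on either strand to 3 motifs: a sterol element (TCACNCCAC), the CCAAT box bound by NF-Y (CCAAT, or ATTGG on the other strand) and the GC box bound by SP1 (GGGCGG, or CCGCCC). Some GC boxes overlap each other.
SREBF2: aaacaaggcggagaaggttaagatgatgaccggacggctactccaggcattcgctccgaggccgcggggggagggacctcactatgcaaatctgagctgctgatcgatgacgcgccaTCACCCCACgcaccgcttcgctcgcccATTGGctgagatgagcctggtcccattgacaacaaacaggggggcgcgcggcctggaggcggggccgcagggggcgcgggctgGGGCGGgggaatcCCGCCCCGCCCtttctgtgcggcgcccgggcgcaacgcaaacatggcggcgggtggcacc
HMGCS1: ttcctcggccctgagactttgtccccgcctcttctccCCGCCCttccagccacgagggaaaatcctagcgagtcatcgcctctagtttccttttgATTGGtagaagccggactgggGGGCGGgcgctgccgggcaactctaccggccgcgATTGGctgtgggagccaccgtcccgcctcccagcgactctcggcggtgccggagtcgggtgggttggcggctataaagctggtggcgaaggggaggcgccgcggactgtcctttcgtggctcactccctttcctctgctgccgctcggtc
LSS: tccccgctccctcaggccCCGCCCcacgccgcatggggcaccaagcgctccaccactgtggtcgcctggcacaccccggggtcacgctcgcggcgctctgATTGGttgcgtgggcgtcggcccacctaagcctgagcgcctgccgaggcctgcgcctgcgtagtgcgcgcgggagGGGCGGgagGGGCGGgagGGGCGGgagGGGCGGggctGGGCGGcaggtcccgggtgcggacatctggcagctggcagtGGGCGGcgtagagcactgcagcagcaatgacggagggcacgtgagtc
INSIG1: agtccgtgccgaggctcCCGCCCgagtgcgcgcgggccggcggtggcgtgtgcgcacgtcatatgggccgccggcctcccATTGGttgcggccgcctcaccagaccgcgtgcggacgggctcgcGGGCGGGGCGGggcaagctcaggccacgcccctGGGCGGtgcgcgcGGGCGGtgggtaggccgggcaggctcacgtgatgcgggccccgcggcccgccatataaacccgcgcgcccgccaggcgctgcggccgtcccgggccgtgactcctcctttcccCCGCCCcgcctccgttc
The exact sterol element stood only in the SREBF2 window among 28 of the 32 genes with a window in the table, with its first base 133 bases before the start. It was found in 1.13% of all 35116 windows. A CCAAT box was found in 20 of the 28 genes, in 63.2% of their 38 windows and in 34.6% of all windows, and a GC box in 25 of the 28, in 86.8% and 45.0% of windows. All windows cover 27305 gene symbols, more than the 16591 genes tested. The windows of tested genes alone were not counted, so these shares do not compare the 28 with other expressed genes. The 20 genes with a CCAAT box included 6 that rose, 10 that fell and 4 that did not pass the test. All 28 genes with a window divided in a similar way, into 9, 13 and 6. A match describes these letters only, and no match says only that they are not in this window.

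Among the regulators of SREBP, SREBF1, INSIG1 and SCAP fell, INSIG2 and MBTPS1 rose, and SREBF2 and MBTPS2 did not pass the test. SREBF1 (ENSG00000072310; chromosome 17, 17810399 to 17837002) had 81.7, 78.2 and 74.5 CPM in siControl and 11.5, 11.3 and 8.93 CPM in siSON. The siSON libraries lay far below the siControl libraries, at 13.5% of the control mean, with a log2 change of -2.88 (SE 0.10, adjusted p 1.88e-09). SREBF2 (ENSG00000198911; chromosome 22, 41833079 to 41907308) had 154.9, 136.5 and 144.6 CPM in siControl and 170.0, 131.8 and 134.8 CPM in siSON. Its groups overlapped, and the log2 change was 0.0024 (95% interval -0.20 to 0.21, adjusted p 0.984). Under cyclic loess normalization SREBF2 was called lower, at -0.29 (adjusted p 0.0166). Gene counts do not separate the SREBP-1a and SREBP-1c transcripts of SREBF1, and its exons share 556 bases with RAI1 on the other strand, which rose by 1.06 on the log2 scale (adjusted p 1.203e-07; named after its values were seen).

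INSIG1 (ENSG00000186480; chromosome 7, 155297776 to 155310235) had 64.2, 33.9 and 35.5 CPM in siControl and 22.8, 13.4 and 12 CPM in siSON. Replicate 1 was the highest of each group, yet every siSON library lay below every siControl library, and the log2 change was -1.47 (SE 0.30, adjusted p 0.00166). It was -1.48 without replicate 1 of both groups (adjusted p 1.09e-11), and the call was lost when no low-count filter was used (adjusted p 0.0637). INSIG2 (ENSG00000125629; chromosome 2, 118088452 to 118110997) had 20.2, 20.7 and 19.7 CPM in siControl and 22.5, 22.01 and 24.0 CPM in siSON. INSIG2 rose by 0.17 on the log2 scale (SE 0.07, adjusted p 0.0491), a call that was lost in 9 of 15 alternatives, and library size alone turned the value to -0.023.

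SCAP, the escort of SREBP (ENSG00000114650; chromosome 3, 47413694 to 47477126), fell from 60.7, 67.7 and 68.1 CPM to 39.992, 43.9 and 38.4 CPM. The groups did not overlap, with a log2 change of -0.68 (SE 0.07, adjusted p 6.45e-06). Of the proteases that cut SREBP, 1 was called, beside 71.7% of all genes tested. MBTPS1, site-1 protease, rose from 171 ± 7.70 to 219.9 ± 4.12 CPM (± SD over 3 libraries each), a log2 change of 0.36 (SE 0.05, adjusted p 6.96e-05). That rise was not past the threshold under cyclic loess normalization (0.046, adjusted p 0.403). MBTPS2, site-2 protease, had 36.9 ± 2.07 and 34.8 ± 1.34 CPM (log2 change -0.086, 95% interval -0.24 to 0.066, adjusted p 0.283). It was called lower with library size alone (-0.28, adjusted p 0.00479) and without replicate 1 of both groups (-0.15, adjusted p 0.0489).

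**Figure D2:**
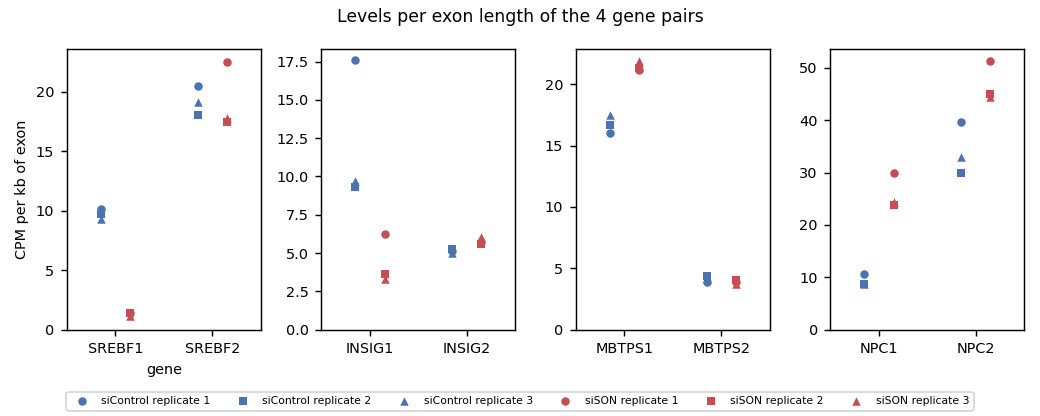
Levels in CPM per kilobase of exon (y axis, linear from 0) of the pairs SREBF1 and SREBF2, INSIG1 and INSIG2, MBTPS1 and MBTPS2, and NPC1 and NPC2 in each of the 6 libraries; blue is siControl, red is siSON and the marker shape is the replicate. SREBF1 drops from a mean of 9.73 to 1.32 while the SREBF2 means are 19.2 and 19.3.

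The ratio of the partners of a pair within a library is nearly free of the scaling between libraries. The log2 ratio of SREBF1 to SREBF2 was -0.92, -0.80 and -0.96 in siControl and -3.89, -3.54 and -3.91 in siSON. The log2 ratio of INSIG1 to INSIG2 was 1.67, 0.71 and 0.84 in siControl and 0.020, -0.72 and -0.998 in siSON. In both pairs the 2 groups did not overlap, and the differences were -2.88 and -1.64. The differences for MBTPS1 over MBTPS2 and for NPC1 over NPC2, which are partners by function and not paralogs, were 0.45 and 1.02. Each of the 4 gave p = 0.1 in a 2-sided exact permutation test, the smallest that 3 libraries against 3 allow, and 0.1 after adjustment over the 4 pairs.

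Of the 18 sterol synthesis enzymes, 9 fell, 7 rose and 2 did not pass the test, beside 36.5% lower and 35.2% higher among all genes. With library size alone or cyclic loess normalization 4 rose, as without siSON replicate 1. The 18 had log2 fold changes from -4.38 to 0.83 and a median of -0.11. The first enzymes make mevalonate and the isoprenoid diphosphates. ACAT2, which joins acetyl-CoA units, fell from 69.2 ± 7.12 to 48.8 ± 7.69 CPM (± SD over 3 libraries each; log2 change -0.50, adjusted p 0.00180). Its exons share 397 bases with TCP1 on the other strand, which rose by 0.35 on the log2 scale (adjusted p 0.000198; named after its values were seen). They also share 1141 bases with SOD2 and 1458 with SOD2-OT1 on that strand, each with 15 counts over the 6 libraries. HMGCS1, which makes HMG-CoA, had 49.8, 30.7 and 33.0 CPM in siControl and 82.6, 60.9 and 58.2 CPM in siSON. All 3 siSON values were above the siControl values, and HMGCS1 rose by 0.83 on the log2 scale (SE 0.19, adjusted p 0.00376), the largest rise among the enzymes. Without siSON replicate 1, its highest library, the value was 0.67 and not past the threshold (adjusted p 0.0544), whereas without replicate 1 of both groups it was 0.88 (adjusted p 6.60e-10). With no low-count filter the adjusted p was 0.08796.

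The 3 enzymes that turn mevalonate into isopentenyl diphosphate went opposite ways. MVK, mevalonate kinase, had 26.1, 19.7 and 22.5 CPM in siControl and 36.3, 30.3 and 30.8 CPM in siSON (log2 change 0.51, SE 0.11, adjusted p 0.00132). PMVK, which adds the next phosphate, had 18.2, 14.5 and 16.4 CPM in siControl and 10.7, 9.07 and 10.2 CPM in siSON (log2 change -0.71, SE 0.11, adjusted p 0.000106). MVD, the decarboxylase after it, had 25.9, 21.1 and 21.2 CPM in siControl and 13.2, 9.69 and 8.79 CPM in siSON (log2 change -1.10, SE 0.15, adjusted p 4.61e-05). In each of the 3 genes the groups did not overlap, MVK being higher in siSON and the others lower. MVK shares 306 exonic bases with MMAB on the other strand; MMAB, a cobalamin enzyme gene named after its values were seen, fell by 0.70 on the log2 scale (adjusted p 0.000428).

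IDI1, the isomerase, fell by 0.28 on the log2 scale (66.5 ± 9.88 to 54.9 ± 4.47 CPM; SD, n = 3 each; adjusted p 0.0294), and its groups overlapped. The IDI1 value was -0.18 without siControl replicate 1 (adjusted p 0.0741), -0.22 without siSON replicate 2 (adjusted p 0.124) and -0.24 without siSON replicate 3 (adjusted p 0.0928), and -0.24 without replicate 1 of both groups (adjusted p 0.00170). FDPS, farnesyl diphosphate synthase, fell from 110.2 ± 14.2 to 78.3 ± 5.80 CPM (log2 change -0.49, adjusted p 0.00046). FDPS has 8 annotated processed copies, which together with it could divide reads, and the most counted of them held 40 counts over the 6 libraries against 35591 for FDPS.

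The branch from farnesyl diphosphate to lanosterol began with higher transcripts and ended with a lower one. FDFT1, squalene synthase, rose from 119.8 ± 16.4 to 156.7 ± 17.6 CPM (± SD over 3 libraries each; log2 change 0.39, adjusted p 0.00620), and SQLE, squalene epoxidase, from 37.3 ± 5.31 to 54.6 ± 5.17 CPM (log2 change 0.55, adjusted p 0.000609). LSS, which closes the rings to lanosterol (ENSG00000160285; chromosome 21, 46188141 to 46228824), had 108.2, 86.2 and 90.6 CPM in siControl and 26.7, 26.1 and 22.5 CPM in siSON. Every siSON library held under 27 CPM and every siControl library over 86 CPM, so that 26.4% of the control mean was left (log2 change -1.92, SE 0.10, adjusted p 2.17e-08). The FDFT1 call was lost with library size alone (0.19, adjusted p 0.0996) and under cyclic loess normalization (0.12, adjusted p 0.327).

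The enzymes that turn lanosterol into cholesterol held the largest fall. TM7SF2, a sterol reductase (ENSG00000149809; chromosome 11, 65111845 to 65116384), had 9.37, 8.59 and 8.69 CPM in siControl and 0.379, 0.349 and 0.551 CPM in siSON. The transcript was under 1 CPM in all siSON libraries, at 4.80% of the control mean, with a log2 change of -4.38 (SE 0.17, adjusted p 4.59e-09). TM7SF2 shares 16 exonic bases with its neighbour VPS51, which also fell, by 1.03 on the log2 scale (adjusted p 1.05e-07; named after its values were seen). EBP, the sterol isomerase, fell from 39.2 ± 5.50 to 26.5 ± 0.152 CPM (± SD over 3 libraries each; log2 change -0.57, adjusted p 0.000210). HSD17B7, a keto reductase of the demethylation steps, fell from 14.3 ± 2.37 to 9.99 ± 0.551 CPM (log2 change -0.52, adjusted p 0.00247), and a transcribed copy of it, HSD17B7P2, could share its reads.

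SC5D, the sterol desaturase, rose from 24.9, 23.0 and 24.1 CPM to 42.4, 32.4 and 34.3 CPM. Its groups were apart, with a log2 change of 0.60 (SE 0.10, adjusted p 0.000204). MSMO1 and NSDHL, which act with HSD17B7 to remove methyl groups, rose by 0.36 and 0.32 on the log2 scale (adjusted p 0.0432 and 0.0309), but their groups overlapped: the highest siControl libraries reached 69.9 and 36.3 CPM and the lowest siSON libraries 66.4 and 35.5 CPM. Both calls were lost with library size alone (0.16 and 0.13, adjusted p 0.266 and 0.342), with a mean count of at least 50 (0.31 and 0.27, adjusted p 0.0783 and 0.0749) and under cyclic loess normalization (0.17 and 0.28, adjusted p 0.266 and 0.0568), while without replicate 1 of both groups they were 0.29 and 0.39 (adjusted p 0.000357 and 5.89e-05). Among settings that left out 1 library, MSMO1 was lost in 4 and NSDHL in 3, down to 0.21 for each (MSMO1 without siSON replicate 1, adjusted p 0.0943; NSDHL without siControl replicate 2, adjusted p 0.140). NSDHL (chromosome X, 152830967 to 152869729, plus strand) starts 189 bases from CETN2, which is read in the other direction and whose product carries GFP in this line.

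DHCR7 and CYP51A1 did not pass the test. DHCR7, which acts at the end of the pathway, had 50.1, 30.4 and 34.2 CPM in siControl and 53.7, 35.5 and 36.6 CPM in siSON. Within each group its replicate 1 was far above the others, and the log2 change was 0.13 (95% interval -0.34 to 0.60, adjusted p 0.587). With the replicate number as a block in the fit, DHCR7 was called higher, at 0.14 (adjusted p 0.0470). CYP51A1, which removes a methyl group from lanosterol, had 3.61 ± 0.712 and 3.73 ± 0.474 CPM (± SD over 3 libraries each; log2 change 0.048, 95% interval -0.33 to 0.43, adjusted p 0.814). Of its 3584 exonic bases, 2844 are also annotated to AC000120.2 on the same strand, which had 0 counts in all libraries. How reads in the shared bases were assigned is not given in the sources used here, so the CYP51A1 level is uncertain.

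**Figure D3:**
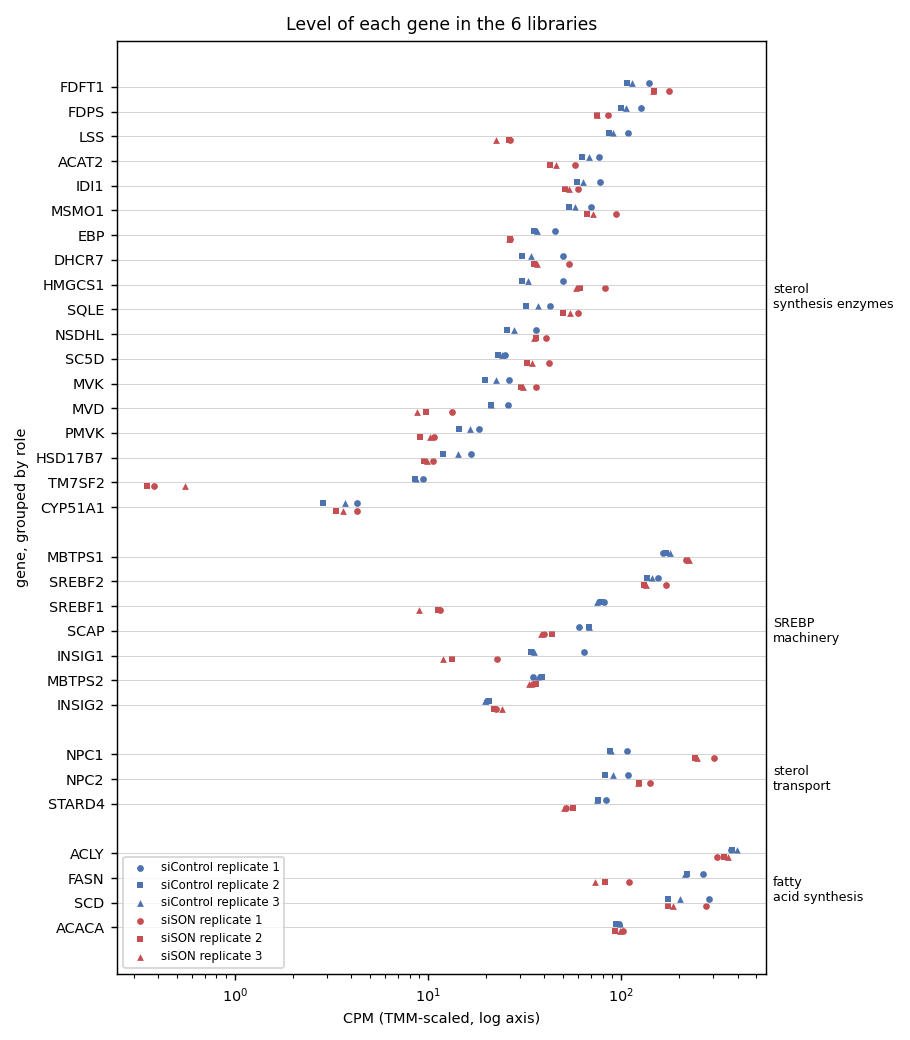
CPM (x axis, log scale) of each of the 32 genes (y axis, grouped by role) in every library; blue is siControl, red is siSON and the marker shape is the replicate. The groups are farthest apart for TM7SF2, at 8.59 to 9.37 and 0.349 to 0.551 CPM, and circles, which mark replicate 1, lie to the right of the other shapes for most sterol synthesis enzymes.

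All 3 sterol transport genes were called changed, 2 higher and 1 lower, beside 71.7% of all genes tested (35.2% higher and 36.5% lower). NPC1, the membrane protein that moves cholesterol out of lysosomes (ENSG00000141458; chromosome 18, 23506184 to 23586898), had 106.9, 87.0 and 88.2 CPM in siControl and 302, 240.1 and 245.8 CPM in siSON. Every siSON library was above 240 CPM and no siControl library above 107 CPM, with a log2 change of 1.48 (SE 0.10, adjusted p 5.26e-07), or 2.79-fold. Over 15 alternatives the value stayed between 1.19 and 1.56. Its partner NPC2, the soluble carrier of the lysosome, rose from 94.0 ± 13.5 to 129.1 ± 10.6 CPM (± SD over 3 libraries each; log2 change 0.46, adjusted p 0.00153), and was not past the threshold under cyclic loess normalization (0.21, adjusted p 0.0720). STARD4, a cytosolic sterol carrier and SREBP-2 target, went the other way, from 83.6, 75.8 and 74.4 CPM to 51.5, 56.1 and 50.3 CPM (log2 change -0.57, SE 0.07, adjusted p 1.69e-05). On the other strand, NPC1 shares 604 exonic bases with RMC1 and NPC2 shares 103 with ISCA2. RMC1 and ISCA2, named after their values were seen, rose by 0.24 and 0.37 on the log2 scale (adjusted p 0.00868 and 0.00359).

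Of the 4 fatty acid synthesis genes, 2 fell and 2 did not pass the test, beside 36.5% lower and 71.7% called among all genes tested. FASN, fatty acid synthase (ENSG00000169710; chromosome 17, 82078333 to 82098332), had 264, 219.8 and 214.9 CPM in siControl and 110.0, 82.1 and 72.8 CPM in siSON. Every siSON library lay below every siControl library, and 37.9% of the control mean was left (log2 change -1.40, SE 0.15, adjusted p 2.05e-05). ACLY, which makes cytosolic acetyl-CoA from citrate, fell by 0.17 on the log2 scale (380.2 ± 14.8 to 337 ± 23.4 CPM; SD, n = 3 each; adjusted p 0.0204). The ACLY value was -0.11 without siSON replicate 1 (adjusted p 0.0833) and -0.54 under cyclic loess normalization (adjusted p 7.24e-06), and the call was also lost without siControl replicate 3 (-0.15, adjusted p 0.0665) and without siSON replicate 2 (-0.17, adjusted p 0.0565).

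ACACA, acetyl-CoA carboxylase, had close group means, 96.6 ± 2.35 and 97.6 ± 4.61 CPM (± SD over 3 libraries each), a log2 change of 0.015 (95% interval -0.11 to 0.14, adjusted p 0.818). It was called lower with library size alone (-0.18, adjusted p 0.00983) and under cyclic loess normalization (-0.22, adjusted p 0.00391). SCD, stearoyl-CoA desaturase, had 284, 175.5 and 202.2 CPM in siControl and 273.5, 174.2 and 184.5 CPM in siSON. The replicates of one group differed more than the groups did, and the log2 change was -0.065 (95% interval -0.53 to 0.40, adjusted p 0.788).

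The higher level of replicate 1 was itself patterned among the genes. Replicate 1 was highest in both groups for 16 of the 18 sterol synthesis enzymes, all but TM7SF2 and EBP, and its level over the mean of replicates 2 and 3 had a median of 1.245 in siControl and 1.17 in siSON. INSIG1 showed the largest ratio, 1.85 in siControl and 1.80 in siSON, followed in siControl by HMGCS1 (1.57), DHCR7 (1.55) and SCD (1.504), whose siSON ratios were 1.39, 1.49 and 1.525. MBTPS1, MBTPS2, SCAP, INSIG2, ACLY and ACACA had ratios between 0.890 and 1.07 in both groups. The median deviation of replicate 1 from its group mean was 0.19 in siControl and 0.13 in siSON on the log2 scale for the 32 genes, and 0.0024 and 0.0048 for all genes tested. Replicate 1 also held the largest mitochondrial share of counts of its group, 6.77% beside 6.35% and 6.13% in siControl and 6.74% beside 6.58% and 6.08% in siSON. The part of this in the pattern was not tested.

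**Figure D4:**
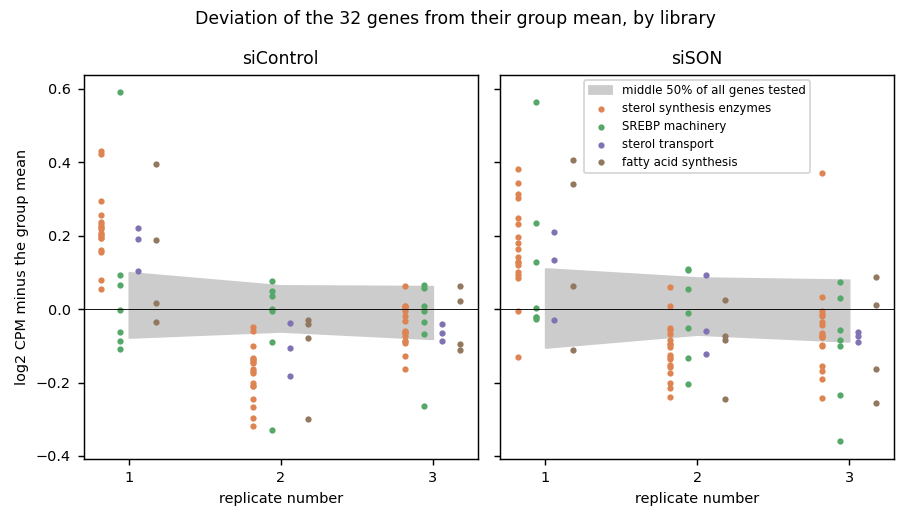
Log2 CPM minus the group mean (y axis) for each of the 32 genes, by replicate number (x axis) in siControl (left) and siSON (right); colours mark roles and the grey band holds the middle 50% of all genes tested. Points of the sterol synthesis enzymes lie above 0 in replicate 1 of siControl and, except TM7SF2 and EBP, of siSON; the highest point in both panels is INSIG1.

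Per kilobase of exon, ACLY had the highest level of the 32 genes in both groups, 72.9 ± 2.83 and 64.6 ± 4.49 CPM per kilobase (SD, n = 3 each). NPC1 moved from position 20 to position 6 in the order of levels, FASN from 5 to 17, LSS from 15 to 27 and SREBF1 from 19 to 30. SREBF2, at 19.2 ± 1.22 and 19.3 ± 2.81 CPM per kilobase, held positions 8 and 9. In siControl its level was above that of SREBF1 (9.73 ± 0.448), and in siSON the gap was wider (1.32 ± 0.177 for SREBF1).

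The genes that fell had, at the median, shorter introns and transcripts richer in G and C than those that rose. A single transcript per gene was chosen from GENCODE release 29 by a fixed rule. Protein-coding transcripts came first, then the annotation's principal-isoform tag, its basic tag and the greatest exon length decided. The median over genes of the median intron length was 743 bases for the 15 genes that fell, 1870.5 bases for the 11 that rose and 1799.5 bases for the 6 not called. G+C content had medians of 55.1%, 48.6% and 47.7%. Among the 12699 protein-coding genes tested that have an intron, 12695 of them with a G+C value, the genes that fell differed from those that rose in the same direction. The medians were 1290.5 bases and 53.7% for those that fell, and 2188.5 bases and 47.3% for those that rose. At least 4 introns under 200 bases were found in 5 of the 15 genes that fell, namely FASN, SCAP, SREBF1, TM7SF2 and FDPS, and in none of the other 17, beside 19.5% of all protein-coding genes that fell and 7.13% of those that rose. FASN had 29 such introns, with a median intron of 131.5 bases, and SREBF1 had 7, with a median of 238.5 bases. PMVK and STARD4 fell without such introns, with median introns of 2857.5 and 949 bases and G+C contents of 59.5% and 34.2%. These are descriptions across genes, which are not independent replicates.

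**Figure D5:**
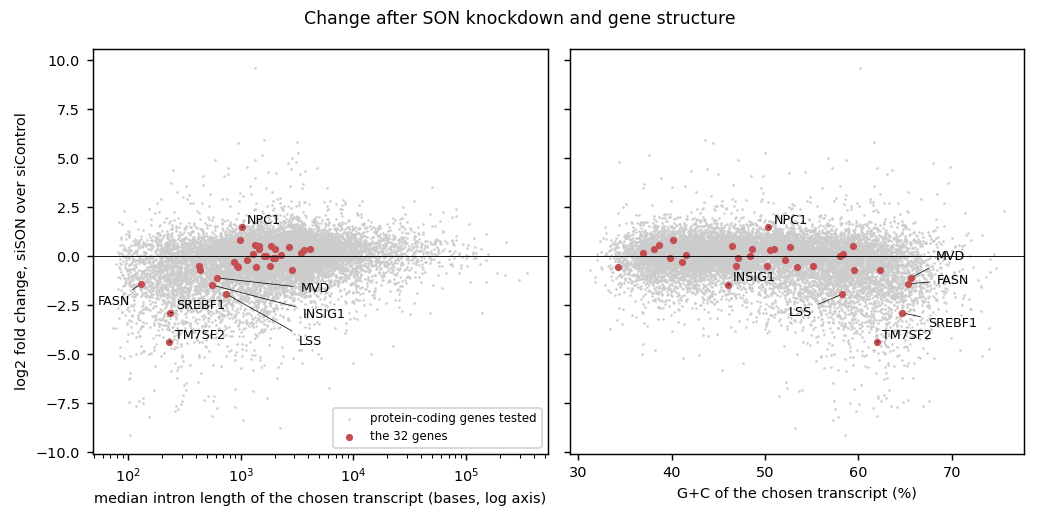
Log2 fold change (y axis, siSON over siControl) against the median intron length in bases (left, log scale) and the G+C content in percent (right) of the chosen transcript; grey points are protein-coding genes tested and red points the 32 genes, labelled where they changed at least 2-fold. All 6 labelled genes that fell have a median intron of at most 743 bases, and 5 of them a G+C content of at least 58.3%.

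Other genes around the pathway were counted in 6 further lists. The counts stand beside 71.7% called, 35.2% higher and 36.5% lower, over all genes tested. Of 20 other lipid synthesis genes, 10 fell and 8 rose (90% called), with a median log2 fold change of -0.14. The fatty acid desaturases FADS2 (-3.36) and FADS1 (-2.87) and the citrate carrier SLC25A1 (-1.54) had the smallest adjusted p-values among those that fell (at most 5.16e-09), and HSD17B12 (0.73), ELOVL6 (0.71) and MCAT (1.03) among those that rose (at most 8.11e-07). FADS2 went from 208.3, 184.5 and 203.9 CPM to 16.7, 21.3 and 20.1 CPM, a far lower level in every siSON library. ACSS2 and ACACB, whose products make and use acetyl-CoA, were named after their values were seen. They stood at -1.87 and -2.77 on the log2 scale (adjusted p 3.20e-08 and 3.18e-08).

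Another list held 18 genes around the liver X receptors (LXR), the sterol-activated nuclear receptors, and around sterol efflux and oxidation. Being listed does not make each gene an LXR, efflux or oxidation gene. Of the 18, 14 were tested and all 14 were called, 10 lower and 4 higher (36.5% and 35.2% of all genes, with 71.7% called), with a median of -0.94. ABCA3 (-3.38), LPCAT3 (-2.69) and ABCA2 (-1.39) had the lowest adjusted p-values among those that fell, and RXRA (1.11), RXRB (0.65) and EBPL (0.53) among those that rose, at most 6.52e-05. ABCA1, the sterol efflux pump, and NR1H3, which encodes LXR alpha, were named after their values were seen and stood at -1.74 and -1.99 on the log2 scale (adjusted p 2.54e-06 and 9.80e-08).

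A further list held 20 genes around sterol-regulated degradation and retention in the endoplasmic reticulum. Being listed does not make each of them a degradation or retention gene. Of the 20, 11 rose and 5 fell (80% called, beside 71.7% of all genes), with a median of 0.25. NPLOC4 (1.14), FAF2 (0.97) and RNF145 (1.204), of which RNF145 is a ubiquitin ligase, rose with adjusted p-values of at most 5.77e-08, and USP20 (-1.39), CYB5R3 (-0.44) and TMUB1 (-0.29) fell with at most 0.00303. Of 31 further sterol transport and esterification genes, 16 rose and 11 fell (87.1% called, beside 71.7%), with a median of 0.15. NCEH1, a cholesteryl ester hydrolase (-2.54), OSBPL5 (-1.96) and GRAMD1A (-1.15) fell, and VAPB (1.25), LIPA, the lysosomal acid lipase (0.89), and GRAMD1C (2.01) rose, with adjusted p-values of at most 2.91e-07.

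In the isoprenoid branch, which leaves the pathway for dolichol, ubiquinone and protein prenylation, 21 of 22 genes were tested and all 21 were called, 15 higher and 6 lower (35.2% and 36.5% of all genes, with 71.7% called), with a median of 0.26. With library size alone 14 were called. COX10 (1.64), FNTA, a prenyltransferase subunit (0.89), and GGPS1, geranylgeranyl diphosphate synthase (1.11), rose and CHML (-1.15), NUS1 (-0.69) and RABGGTA (-0.70) fell, with adjusted p-values of at most 4.75e-06. Of 31 other genes that act on SREBP cleavage or activity, 20 rose and 7 fell (35.2% and 36.5% of all genes), with a median of 0.41. These included the COPII coat adaptors SEC24A (1.47), higher, and SEC24C (-1.27), lower, along with LPIN1 (1.21) and CREBBP (1.13), higher, and AKT1 (-1.90) and HELZ2 (-1.26), lower, with adjusted p-values of at most 3.55e-07. The medians over the lists stand beside -0.027 for all genes tested.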

How the data were processed

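RNA-seq read counts per gene, deposited by the authors as whole numbers with 1 column per library and no normalization, were the only values used. Per the submitters' processing notes, cutadapt 1.16, STAR 2.5.2a, featureCounts 1.6.2, DESeq2 1.28.1 and the hg38 build were used; whether counting used strand, and how reads with several matches were handled, is not given in the sources used here, so genes that overlap or have close copies are uncertain. Columns were matched to libraries by title. All 58735 identifiers matched GENCODE release 29 (GRCh38), which gave positions, exon lengths, introns and G+C content. The edgeR 4.0.16 package (R 4.3.3) was used with filterByExpr (minimum count 10), TMM scaling and its robust quasi-likelihood test of siSON against siControl over all genes. The test was also run on simulated counts, in which few genes changed, equally in both directions, with no replicate effect. That run cannot check how results depend on the scaling when most genes change. Standard errors are the absolute log2 fold change over the square root of F. Log2 ratios of gene pairs used log2 CPM with a prior count of 2. The level of 3 counts was 0.0430 to 0.0550 CPM before scaling, for counting error only.

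The genes and lists were chosen with earlier results of these data known. The genes named are the 32, SON, PLK4, CETN2 and, in each further list, the 3 called genes of lowest adjusted p per direction; others are marked. Pairing by replicate number was checked from the correlation of deviations from the group means. Alternatives were DESeq2 1.42.0, limma-voom (limma 3.58.1), RLE factors, library size alone, no count filter, a mean count of at least 50, the replicate block and leaving out each library; cyclic loess normalization and leaving out replicate 1 of both groups were added after the data were seen.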

Additional observations from a re-analysis of the deposited data

How the results depend on the processing

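Of the 32 genes, 16 kept direction and call under all 15 alternatives run for each (DESeq2, limma-voom, RLE factors, library size alone, 2 count filters, the replicate block, 6 fits that each left out 1 library, omission of replicate 1 of both groups, and cyclic loess). Of the 480 gene values in all, 416 kept direction and call and 27 changed sign; counted whatever the sign, 35 lost a call and 6 gained one. The number called (26) ran from 22 to 27 over all alternatives, and from 22 to 24 when 1 library was left out; those called higher (11) were 7 with library size alone and 6 under cyclic loess. Among the enzymes 4 rose with either of these, and 4 to 7 when 1 library was left out. For the SREBP machinery the number that rose (2) was 1 with RLE factors, library size alone, no filter, a mean count of at least 50, cyclic loess and without replicate 1 of both groups, and 1 to 2 when 1 library was left out. Of the 3 transport genes, 1 rose under cyclic loess. Fatty acid genes that fell numbered 1 to 2 when 1 library was left out. The sterol element was found in 13 of 28 genes with at most 1 mismatch (46.4%), beside 28.2% of all gene symbols with a window, whether tested here or not.

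The sign changes were in 6 genes, each with a log2 change of at most 0.17 in size. SREBF2 was -0.0038 with limma-voom, -0.20 with library size alone, -0.054 with a mean count of at least 50, -0.29 under cyclic loess and -0.10 without replicate 1 of both groups, and ran from -0.11 to 0.081 when 1 library was left out. ACACA was -0.18 with library size alone, -0.042 with a mean count of at least 50, -0.22 under cyclic loess and -0.032 without replicate 1 of both groups. CYP51A1 was -0.15 with library size alone and -0.0088 with a mean count of at least 50, DHCR7 -0.064 and INSIG2 -0.023 with library size alone. When 1 library was left out, CYP51A1 ran from -0.11 to 0.16, DHCR7 from -0.074 to 0.35, ACACA from -0.025 to 0.063 and SCD from -0.28 to 0.13.

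Same-numbered libraries had correlations of deviations of 0.0461 to 0.194, so the numbers were not taken to pair them, although each library correlated best with its own number. The main fit therefore counts any difference shared by same-numbered libraries as spread. With the replicate block 27 genes were called instead of 26. DHCR7 was added (0.14, adjusted p 0.0470) and SREBF2 was -0.0053. The adjusted p went from 0.00376 to 1.235e-07 for HMGCS1 and from 0.0432 to 5.01e-05 for MSMO1, while CYP51A1 stayed uncalled (adjusted p 0.716). For all genes tested, 12313 instead of 11888 were called. At 54572365 counts or more per library, counting limits only the lowest of these genes, TM7SF2 in siSON and CYP51A1.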
